A study of Mus musculus with 17 samples.

Results

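The protein-coding genes of the cytosolic ribosome were followed across 5 sorted populations of mouse monocytes and their progenitor. The members are all genes in the array's annotation whose symbol names a protein of the large (Rpl) or small (Rps) subunit, including the acidic stalk proteins, without symbols marked as pseudogenes and without the S6 kinases. By this rule 79 symbols belonged to the set, and 67 of them had a probe set of their own and were measured, among 22180 genes in all; 42 of the 67 belong to the large and 25 to the small subunit. The other 12 (Rpl10, Rpl12, Rpl13a, Rpl23, Rpl24, Rpl31, Rpl35a, Rpl36, Rpl36a, Rps15a, Rps2 and Rps21) lay only on probe sets that carry several symbols, so no value is given for them. The RefSeq annotation lists Rpl6l as a pseudogene and Rps4l as a transcribed pseudogene, and both were kept because the symbol rule takes them.

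RNA of sorted cells had been hybridized to 17 Affymetrix MoGene 2.0 arrays, and the mice were 8 to 12 weeks old. DT-Ly6C+ monocytes (4 arrays) were splenic CD11b+CD115highLy6Chigh cells of CD11c.DTR mice, in which the Itgax promoter drives the diphtheria toxin receptor, taken 48 h after diphtheria toxin, and PBS-Ly6C+ monocytes (4 arrays) were the same gate from CD11c.DTR mice 48 h after PBS; heterozygotes and homozygotes for the transgene were both in use. The arrays called G-CSF-Ly6C+ monocytes here (3 arrays) carry a label that names both Flt3L and G-CSF, whereas the study's methods describe subcutaneous G-CSF alone in C57BL/6 mice without the transgene. Ly6Cneg monocytes (3 arrays) were splenic cells of the corresponding Ly6C-negative gate and carry conflicting descriptions, since their label says PBS-injected while the study describes them as sorted from C57BL/6 mice, and the labels give C57BL/6 as the strain of every group. The common monocyte progenitors (cMoPs, 3 arrays) were CD117+CD115+CD135negLy6C+CD11bneg bone marrow cells of C57BL/6 mice. Cells came from individual or pooled mice. The methods state collagenase digestion for spleens, and tissue and its preparation cannot be told apart from the difference between cMoPs and the splenic groups. The array names form 2 series: G32 holds the cMoPs, the Ly6Cneg monocytes, 1 DT and 1 PBS array (8 arrays), and JS holds 3 DT, 3 PBS and 3 G-CSF arrays (9 arrays). The labels do not say what the prefix stands for. Every comparison below was made within 1 series unless it says otherwise.

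Each cytosolic ribosome has a large and a small subunit, each built of ribosomal RNA and many proteins that are needed in equal numbers, so their messengers are among the most abundant in a dividing cell. These messengers typically begin with a C followed by a run of pyrimidines, the 5′ terminal oligopyrimidine or TOP motif, through which the mTOR kinase and the RNA-binding protein LARP1 control how many of them are translated. A monocyte progenitor divides, whereas the monocytes it gives rise to largely do not.

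RefSeq start sites (GRCm38.p6) were at hand for 52 of the 67 members, as windows of 250 bases before to 50 bases after the start. The TOP motif was searched on the transcribed strand as a C at or within 3 bases of the start followed by at least 4 C or T bases, and 19 of the 52 members had it (36.5%), against 13.5% of all 27025 genes with a window. The following 30-base stretches hold the 10 bases before the start and the first 20 bases of the transcript, 5′ to 3′, with that run in capitals. They were chosen because the first 4 belong to members called in none of the 4 comparisons that have 3 arrays a group, the next 2 to members that were lower in Ly6Cneg monocytes than in cMoPs, and the last to the member with the largest difference of all.
Rpl28 (chr7:4792955-4792984, plus strand): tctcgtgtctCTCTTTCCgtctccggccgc
Rpl38 (chr11:114668570-114668599, plus strand): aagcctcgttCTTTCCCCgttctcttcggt
Rps18 (chr17:33955646-33955675, minus strand): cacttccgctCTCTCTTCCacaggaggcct
Rps6 (chr4:86857348-86857377, minus strand): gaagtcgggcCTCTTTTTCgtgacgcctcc
Rpl15 (chr14:18270967-18270996, minus strand): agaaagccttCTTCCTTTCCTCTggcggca
Rpl27a (chr7:109519185-109519214, plus strand): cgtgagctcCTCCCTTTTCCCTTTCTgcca
Rpl34 (chr3:130730379-130730408, minus strand): tccctgacgtaCTTCCTgtccggcgccgtc
The run was thus present in members that were called and in members that were not. Of the 19 members with it, 7 were lower in Ly6Cneg monocytes than in cMoPs (median log2 difference −0.16), as were 13 of the 33 members with a window but no such run (median −0.22). Starts were taken from the annotation and not measured, so a member without a run there may still begin with one. The 19 and the 33 therefore cannot be read as members with and without the motif.

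The site CCGGAAG, read by ETS family factors such as GABPA, stood on either strand of the 300-base window in 23 of the 52 members (44.2%), against 9.93% of all genes. It is shown in capitals for Rpl26 and Rpl6, which were both lower in DT-Ly6C+ than in PBS-Ly6C+ monocytes of the JS series and had no pyrimidine run at the annotated start.
Rpl26 (chr11:68901556-68901585, plus strand): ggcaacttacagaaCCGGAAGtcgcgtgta
Rpl6 (chr5:121204491-121204520, plus strand): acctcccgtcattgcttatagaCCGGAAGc
The GC box GGGCGG was found in 28 members (53.8%, all genes 38.2%) and AAGATGGC, a site of YY1, in 3 (5.77%, all genes 3.19%), each on either strand. The reverse complement of the ETS site, CTTCCGG, can overlap a pyrimidine run. These counts describe letters in the windows and were not tested.

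The deposited values are log2 signals from robust multi-array averaging, a background correction, quantile normalization and summary of the probes of each set, and a difference of 1 is a 2-fold difference in signal. Array medians over all probe sets lay between 5.31 and 5.53, and no value was missing. Differences were tested with limma, with a mean for each group within each series and Benjamini-Hochberg adjustment over all 22180 genes, and a gene was called at an adjusted p under 0.05. The labels do not say which arrays came from separate mice, so the p-values measure the spread between arrays. In bulk samples fewer cells of a type and less RNA per cell cannot be told apart.

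Marker lists set the JS PBS-Ly6C+ arrays apart from their label. Over 10 stem and progenitor genes the mean log2 level was 8.31 to 8.39 in the 3 JS PBS-Ly6C+ arrays and 7.81 to 8.06 in the cMoPs, against 5.40 to 5.70 in the G32 PBS-Ly6C+ array and all DT- and G-CSF-Ly6C+ arrays. Over 9 genes of dividing cells it was 9.69 to 9.74 in JS PBS-Ly6C+ and 10.30 to 10.45 in cMoPs, against 7.25 to 7.82 in all other arrays, and over 8 monocyte genes it was 9.70 to 9.80 in JS PBS-Ly6C+ against 11.33 to 11.51 in the G32 PBS-Ly6C+ array and all DT- and G-CSF-Ly6C+ arrays. Myb, a transcription factor of haematopoietic progenitors, averaged 10.96 in the JS PBS-Ly6C+ arrays and stood at 5.66 in the G32 PBS-Ly6C+ array. T cell genes were also higher there (9 genes, 6.52 to 6.72, against 4.74 to 5.22 in the cMoPs and the other Ly6C+ arrays), with Cd3d at a mean of 7.34, and so were 12 neutrophil granule genes (11.16 to 11.23, against 8.50 to 9.31 in the other Ly6C+ arrays). Compared by limma with the G32 PBS-Ly6C+ array, the JS PBS-Ly6C+ arrays were higher in 7 of the 10 stem and progenitor, 8 of the 9 cell division, 4 of the 9 T cell and 8 of the 12 neutrophil granule genes, and lower in 6 of the 8 monocyte genes. The Ly6Cneg arrays lay between, with T cell genes at 5.61 to 6.30 and stem and progenitor genes at 6.10 to 6.83. There, 9 B cell genes ranged from 5.93 to 7.31 (4.93 to 5.55 in the other arrays) and 8 dendritic cell genes from 8.54 to 9.59 (5.56 to 7.24 elsewhere). Against cMoPs, 7 of the 9 B cell, 7 of the 8 dendritic cell and 4 of the 9 T cell genes were called higher in Ly6Cneg monocytes. Lower were 9 of the 9 cell division and 5 of the 10 stem and progenitor genes. Of the 8 monocyte genes 5 were called higher and 2 lower than in cMoPs. The 8 monocyte genes averaged 8.91 to 9.87 in Ly6Cneg arrays, below the 11.33 to 11.51 of the G32 PBS-Ly6C+ array and all DT- and G-CSF-Ly6C+ arrays. Kit, the CD117 antigen that the cMoP gate selects, averaged 9.14 in Ly6Cneg monocytes and 9.64 in cMoPs (adjusted p = 0.383), and the dendritic cell genes Flt3 and Zbtb46 averaged 9.33 and 7.80 in Ly6Cneg monocytes, so the markers of this group are not those of monocytes alone. Cd4 averaged 8.42 there and 5.42 in cMoPs. Cd79a, a chain of the B cell receptor, averaged 7.89 there, and Ly6c2, which encodes the antigen of the gate, averaged 8.11 against 13.00 in cMoPs. Their part in the differences of ribosomal protein genes was not tested.

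As a set, the ribosomal protein genes were among the brightest on the array. The mean log2 level over the 17 arrays reached 13.16 for Rplp1 and 13.10 for Rpl41, and 38 of the 67 members were at or above 9.46, the 95th percentile of all genes. The probe sets fell into a bright and a dim part: 36 members averaged 10 or more (10.18 and up) and 31 averaged less (9.93 and down), among them Rpl5 at 5.88 and Rpl11 at 6.13. Of the dim members, Rpl10l (3.54) and Rpl32l (3.09) lay under 4.78, the 30th percentile of gene means. Levels of different probe sets cannot be set against each other as amounts of messenger, and mouse ribosomal protein genes have many processed pseudogenes whose sequence probes can share. Bright members were also the steadiest, with a median SD between the 3 arrays of a group of 0.05 to 0.06, against 0.18 to 0.23 for dim members.

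**Figure D1:**
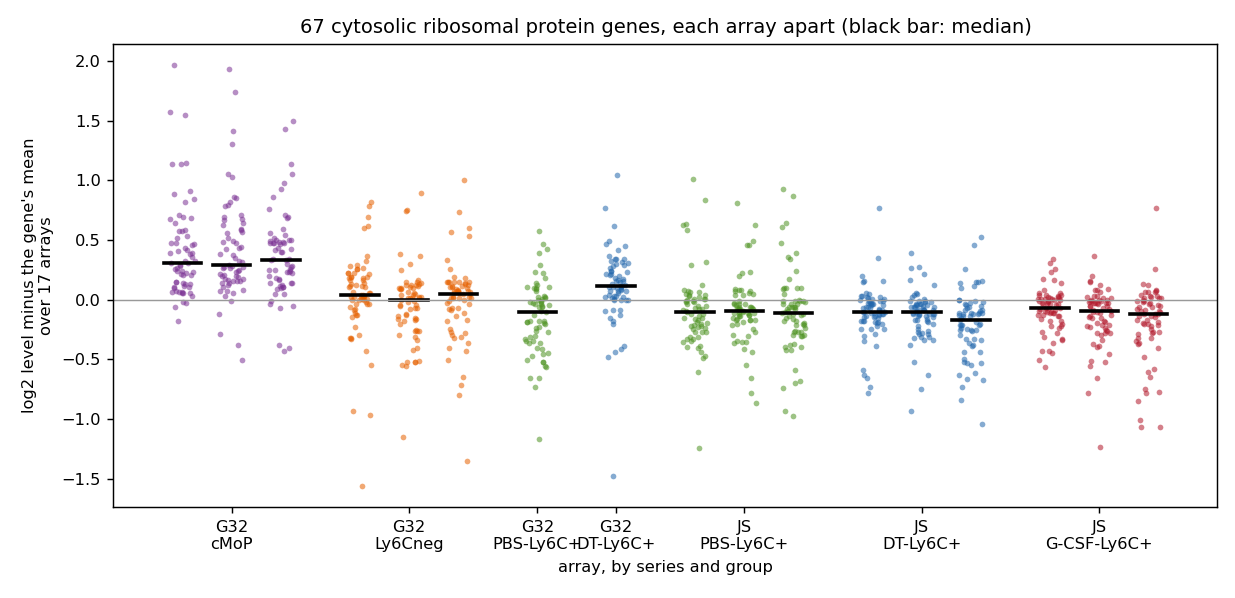
Each point is 1 of the 67 members in 1 of the 17 arrays, as its log2 level minus its own mean over the arrays (y axis), with arrays placed by series and group (x axis) and a black bar at the array's median. The 3 cMoP arrays have medians of 0.29 to 0.34, above every other array, and the JS arrays lie between −0.16 and −0.06.

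Levels of the members were highest in cMoPs. These are all in the G32 series, so against JS arrays population and series cannot be told apart. The median member lay at 11.05 to 11.14 in the 3 cMoP arrays, at 10.47 to 10.81 in the Ly6Cneg arrays, at 10.77 in the G32 DT-Ly6C+ array and at 10.34 in the G32 PBS-Ly6C+ array. In the JS series it lay at 10.36 to 10.61 in PBS-Ly6C+, 10.20 to 10.41 in DT-Ly6C+ and 10.14 to 10.41 in G-CSF-Ly6C+ monocytes, so the 3 JS groups overlapped. Of the 67 members, 60 to 63 were above their own mean in each cMoP array, 52 in the G32 DT-Ly6C+ array, 33 to 44 in each Ly6Cneg array, 22 in the G32 PBS-Ly6C+ array and 9 to 22 in each JS array.

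The comparison of Ly6Cneg monocytes with cMoPs sets the splenic cells of the Ly6C-negative gate, with the B cell, dendritic cell and T cell genes given above, against the bone marrow progenitor. Here 28 of the 67 members were lower and 1 was higher in Ly6Cneg monocytes, where 19.4% of all genes were called lower and 13.5% higher. The median log2 difference of the members was −0.28 and that of all genes 0.07, and 59 of 67 members had a negative difference. In 42 members (62.7%) all 3 Ly6Cneg arrays lay below all 3 cMoP arrays, as did 21.9% of all genes. Both subunits took part: 17 of 42 large subunit and 11 of 25 small subunit members were lower, with medians of −0.25 and −0.33. Of the 29 calls 19 held whichever array was left out, and those of Rpl15 and Rpsa were lost whichever it was. The sizes were uneven, since 47 of the 67 differed by less than 0.5 and 8 by more than 1.

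Rpl34, a protein of the large subunit (GRCm38.p6, chr3:130726827-130730398), had the largest fall. It stood at 9.26, 9.23 and 8.79 in the cMoP arrays and at 5.73, 6.78 and 5.94 in the Ly6Cneg arrays. The groups were far apart, with a log2 difference of −2.94 ± 0.22 (SE), or 7.67-fold lower (limma adjusted p = 3.6e-08).
Rpl30 (chr15:34440505-34443276), which outside the ribosome can bind selenoprotein messengers, was at 7.63, 7.82 and 7.51 in cMoPs and at 5.65, 4.93 and 5.28 in Ly6Cneg monocytes. Again no array overlapped, and the difference was −2.36 ± 0.19 (adjusted p = 1.03e-07).
Rps7 (chr12:28630847-28635953), a small subunit protein whose human gene is mutated in some families with Diamond-Blackfan anaemia, was at 8.64, 8.92 and 8.56 against 7.18, 6.98 and 6.79. It was thus 3.30-fold lower in Ly6Cneg monocytes (−1.72 ± 0.25, adjusted p = 4.57e-05).
Rpl6 (6.99, 6.45 and 6.79 against 5.34, 5.89 and 5.88) fell by 1.04 on the log2 scale (adjusted p = 0.00163). All 4 average less than 10.

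The bright members that fell did so by less. Rplp0, the stalk protein that anchors the P1-P2 dimers and on which many laboratories normalize quantitative PCR, was at 11.06, 11.04 and 10.52 in cMoPs and at 10.05, 9.66 and 9.88 in Ly6Cneg monocytes, 2.01-fold lower (−1.01 ± 0.16, adjusted p = 9.57e-05). The other stalk proteins, Rplp1 and Rplp2, which recruit elongation factors, differed by −0.26 (adjusted p = 0.0852) and −0.24 (adjusted p = 0.515) and were not called. Rps3, which lines the messenger's entry channel, fell by 0.53 (12.21, 12.32 and 12.22 against 11.81, 11.65 and 11.70, adjusted p = 0.00249). Rpsa, also known as a laminin receptor, fell by 0.33 (adjusted p = 0.0382). Among bright members that were not called, Rps6, the substrate of the S6 kinases, differed by −0.16 (95% interval −0.38 to 0.06). The difference of Rpl23a, which lies at the exit of the peptide tunnel, was −0.18 (−0.41 to 0.06), and that of Rpl38, whose loss alters the mouse axial skeleton, was 0.05 (−0.17 to 0.26).

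**Figure D2:**
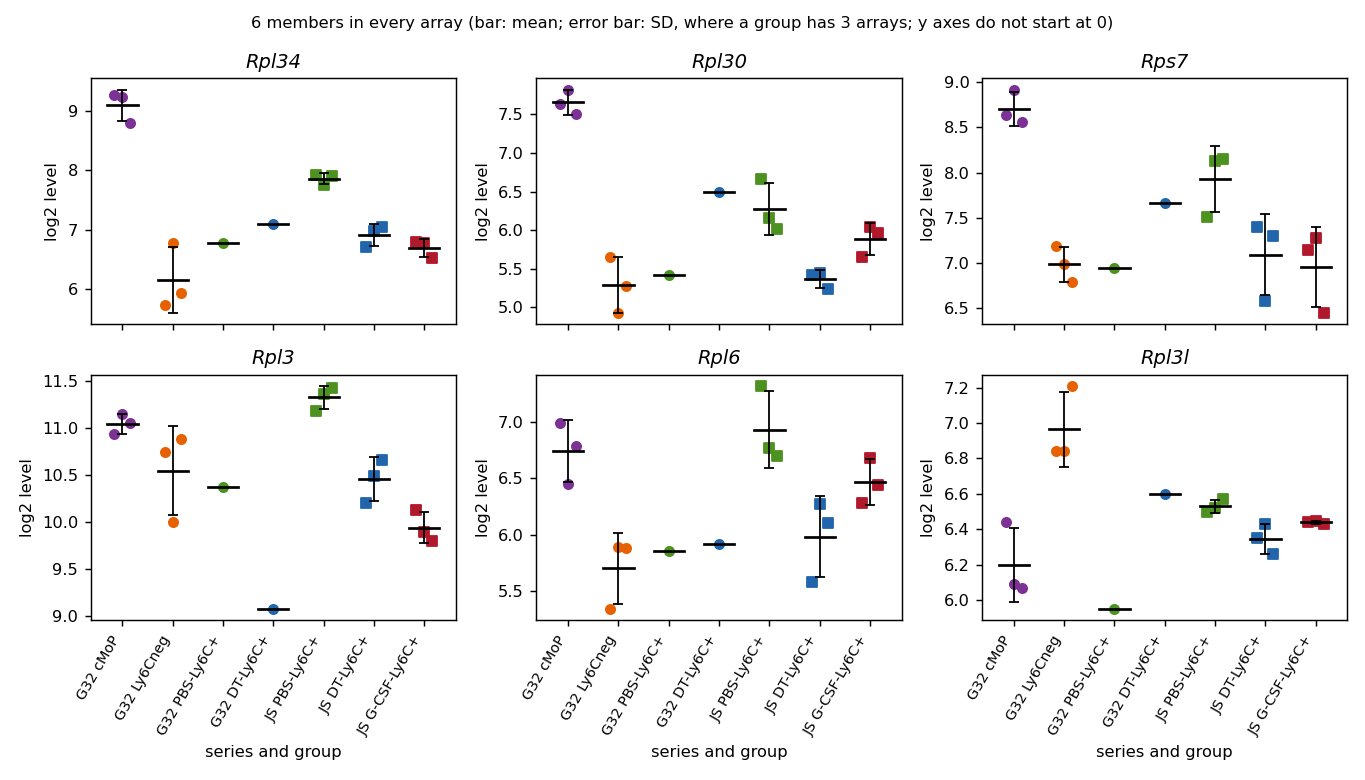
Log2 level (y axes, not starting at 0) of 6 members in each array, by series and group (x axes), as circles for G32 and squares for JS, with the mean as a bar and the SD as an error bar where a group has 3 arrays. Rpl34, Rpl30 and Rps7 are highest in the 3 cMoP arrays, and Rpl3 and Rpl34 are higher in the 3 JS PBS-Ly6C+ arrays than in any other JS array.

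A partial list of 9 genes mutated in Diamond-Blackfan anaemia in humans was used, and 7 of them were measured. Of these 7, 2 were lower in Ly6Cneg monocytes, Rps7 and Rps26 (−0.35, limma adjusted p = 0.0344). The call of Rps26 was lost in 5 of the 6 fits that left out an array. Rps19, the most often mutated, differed by −0.22 (adjusted p = 0.151), Rps24 by −0.04 (0.81), Rps10 by −0.12 (0.491), Rpl11 by −0.19 (0.374) and Rpl5 by 0.48 (0.369). The intervals of Rps19 (−0.46 to 0.02) and Rps24 (−0.29 to 0.20) were narrow, and that of Rpl5 (−0.32 to 1.27) was wide.

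The paralogues, second copies of a ribosomal protein gene with restricted or alternative use, did not move as a block. All 7 listed were measured. Rpl3l, the striated muscle copy of Rpl3, was the only member called higher, among 8 with a positive difference. It was at 6.44, 6.09 and 6.07 in cMoPs and at 6.84, 6.84 and 7.21 in Ly6Cneg monocytes (0.76 ± 0.14, adjusted p = 0.000321). Its usual form Rpl3 differed the other way, by −0.50 (adjusted p = 0.0646). Rpl7l1 fell by 1.27 (8.22, 8.54 and 7.98 against 6.58, 7.25 and 7.11, adjusted p = 0.00146) and its counterpart Rpl7 differed by −0.34 (adjusted p = 0.0944). Rps27l, a p53 target in human cells, fell by 1.18 (8.95 to 9.40 against 7.83 to 8.07, adjusted p = 6.95e-06), whereas Rps27 differed by 0.21 (0.617). Rps4l fell by 0.96 (adjusted p = 0.00261) and Rps4x by 0.55 (adjusted p = 0.00327). Rpl22l1 (0.28, adjusted p = 0.19), the testis copies Rpl39l (0.27, adjusted p = 0.427) and Rpl10l (0.03, adjusted p = 0.895) were not called, and of their counterparts Rpl22, needed for early T cell development in the mouse, fell by 0.41 (adjusted p = 0.0117) and Rpl39 differed by −0.08 (adjusted p = 0.732).

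**Figure D3:**
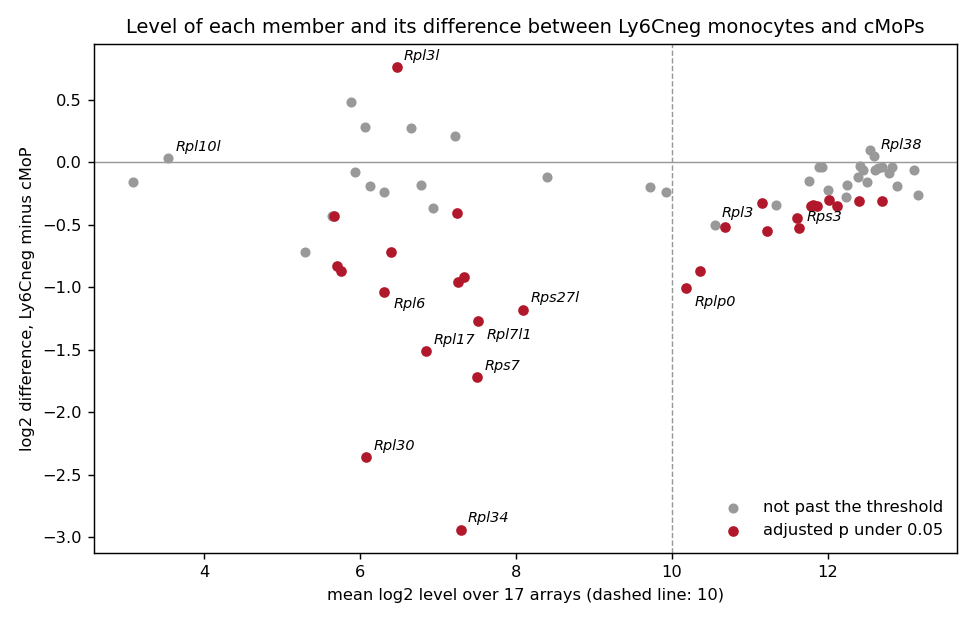
Mean log2 level of each of the 67 members over the 17 arrays (x axis, dashed line at 10) against its log2 difference, Ly6Cneg minus cMoP (y axis), with members past the threshold in red. Differences beyond −1.01 lie to the left of the dashed line, and the 36 members to its right lie between −1.01 and 0.10.

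The larger differences were those of dim members. Of the 36 bright members 14 were lower, with a median of −0.24 and none beyond −1.01, and of the 31 dim members 14 were lower and 1 higher, with a median of −0.41 and a range from −2.94 to 0.76. The bright members' share (38.9%) was near that of the 647 genes of the array with a mean of 10 or more, of which 34.5% were lower (median −0.10) and 27.5% higher, and the dim members' share (45.2%) compares with 18.9% of the genes under 10 (median 0.07). A larger fall in dimmer sets was seen between probe sets of 1 gene. In 24 members with several distinct probe sets, 6 of the 24 brightest sets (the ones that stand for the gene) and 17 of the 34 further sets were lower in Ly6Cneg monocytes, with medians of −0.17 and −0.36. The brightest set of Rps24 (mean level 11.93) differed by −0.04 while its second set (8.85) differed by −1.52 (adjusted p = 1.65e-05); that of Rpl29 (12.12) differed by −0.35 and its second set (9.05) by −1.63 (adjusted p = 0.000805). Rpl3, not called on its brightest set (−0.50), was lower on its second set (−1.04, adjusted p = 0.000148). Rplp0 gave a like fall on both of its sets (−1.01 and −0.99). Counting a member where any of its probe sets was called gave 37 lower and 1 higher. That rule gives a member with several sets more chances of a call, and its share over all genes is not given.

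**Figure D4:**
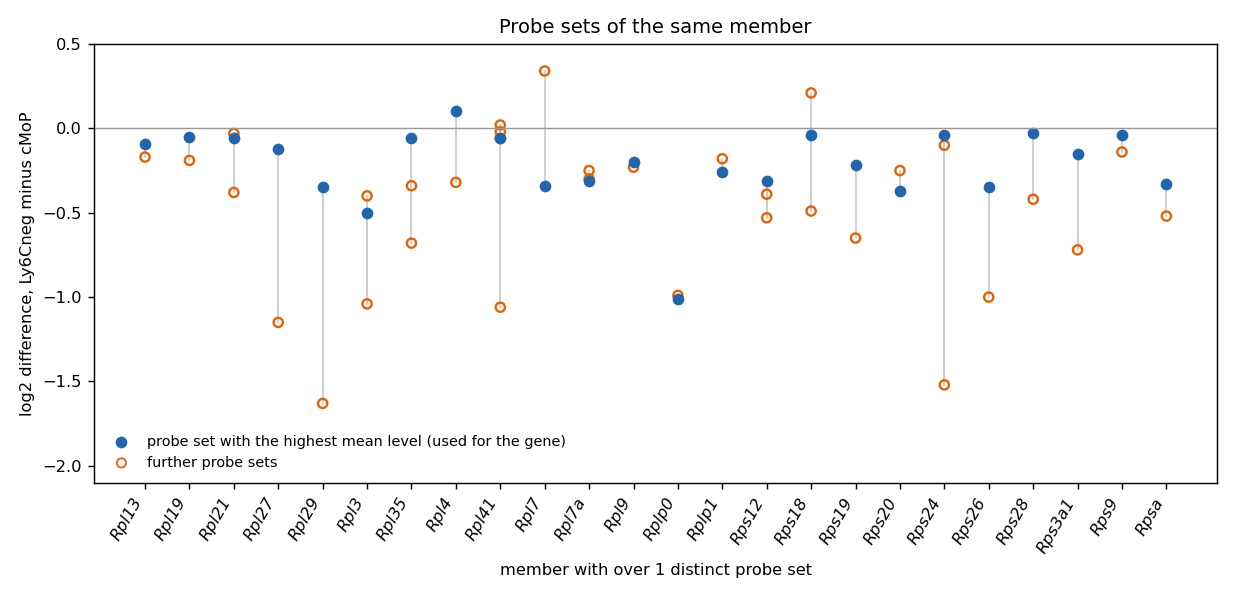
Log2 difference, Ly6Cneg minus cMoP (y axis), for each distinct probe set of the 24 members that have several (x axis), as a filled circle for the set with the highest mean level and open circles for the others. The filled circles have a median of −0.17 and the open ones −0.36, and in Rps24, Rpl29, Rpl27, Rpl41 and Rpl3 an open circle lies more than 1 below 0 while the filled one does not.

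The comparison of DT-Ly6C+ with PBS-Ly6C+ monocytes in JS rests on PBS arrays with the progenitor, cell division, T cell and neutrophil granule genes given above. Its differences cannot be read as effects of the depletion of CD11c+ cells alone. In the JS series 6 of 67 members were lower and 0 were higher in DT-Ly6C+ monocytes, where 10.01% of all genes were lower and 9.46% higher. At an unadjusted limma p under 0.05, 9 members were lower and 4 higher, as were 3136 and 3284 of all 22180 genes. The 6 are a share near that of all genes. The median difference of the members was 0.01 and that of all genes 0.02. Of the 36 members averaging 10 or more, 1 was lower and 0 higher (median 0.02). Among all genes at that level 10.7% were lower and 30.4% higher (median 0.17). Of the 31 dimmer members 5 were lower (16.1%) and 0 higher, where 9.99% of the genes under 10 were lower and 8.83% higher. Of the 6 (Rpl34, Rpl6, Rpl30, Rpl3, Rps7 and Rpl26), all but Rpl3 and Rpl26 were also lower in Ly6Cneg monocytes than in cMoPs. Between the same DT and PBS arrays, 9 of 10 stem and progenitor genes, 9 of 9 genes of dividing cells, 7 of 12 neutrophil granule genes and 5 of 9 T cell genes were lower in DT-Ly6C+ monocytes, and 6 of 8 monocyte genes were higher. Their part in the falls was not tested.

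Rpl34 stood at 7.92, 7.75 and 7.90 in the JS PBS-Ly6C+ arrays and at 6.70, 6.98 and 7.05 in the JS DT-Ly6C+ arrays. It was 1.93-fold lower in the JS DT-Ly6C+ arrays (−0.95 ± 0.22, adjusted p = 0.00512). In G32 it stood at 6.77 in the PBS-Ly6C+ array and at 7.09 in the DT-Ly6C+ array.
Rpl6 was at 7.32, 6.77 and 6.70 against 5.58, 6.27 and 6.10 (−0.95 ± 0.22, adjusted p = 0.00564), and Rpl30 at 6.66, 6.16 and 6.02 against 5.42, 5.45 and 5.24 (−0.91 ± 0.19, adjusted p = 0.00276). The arrays of both groups were separate in each gene. All JS DT-Ly6C+ arrays lay below all JS PBS-Ly6C+ arrays in 16 of the 67 members (23.9%), as did 16.9% of all genes. They all lay above in 13 (19.4%), as did 18.5% of all genes.
Rpl3 (chr15:80077781-80083406), which reaches to the peptidyl transferase centre, was the only bright member to fall. It was at 11.18, 11.36 and 11.42 in PBS-Ly6C+ and at 10.20, 10.49 and 10.66 in DT-Ly6C+ monocytes (−0.87 ± 0.20, adjusted p = 0.00438). Its brightest probe set alone carried the fall, since the other sets (mean levels 8.63 and 5.52) differed by 0.02 and 0.22.
Rps7 (7.51, 8.13 and 8.15 against 7.40, 6.57 and 7.29) fell by 0.84 with an adjusted p of 0.0249, and Rpl26 (6.51, 6.72 and 7.12 against 6.15, 6.03 and 6.11), which promotes translation of p53 in human cells, by 0.68 with an adjusted p of 0.00959. Rps7 lost its call without JS DT array 2, PBS array 2 or PBS array 3, and Rpl26 without PBS array 3 (adjusted p up to 0.141 and 0.0567). Without JS DT array 3, Rpl7 was called higher, and without PBS array 2, Rpl9 was.
With the G32 arrays brought in, 1 of the 6 calls held with an additive series term (Rpl3) and 0 with no series term. Counting any probe set, 9 members were lower, again with more chances of a call and no share over all genes by that rule. The further 3 were Rpl29 (second set, −1.62, adjusted p = 0.0015), Rps24 (second set, −0.87, adjusted p = 0.00453) and Rpl41 (dimmest set, −0.52, adjusted p = 0.0151).

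Most of the set differed by little. Of the 67 members 59 differed by less than 0.5, and in 58 the 95% interval lay within 1 of 0. The stalk proteins differed by −0.07 (Rplp0), −0.21 (Rplp1) and 0.42 (Rplp2), and Rps6 by −0.07 (−0.29 to 0.15). None of the 7 paralogues was called, and their differences ran from −0.45 (Rpl7l1, adjusted p = 0.307) to 0.49 (Rps4l, adjusted p = 0.147). Of the 7 measured genes of the partial Diamond-Blackfan list Rps7 alone was called.

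**Figure D5:**
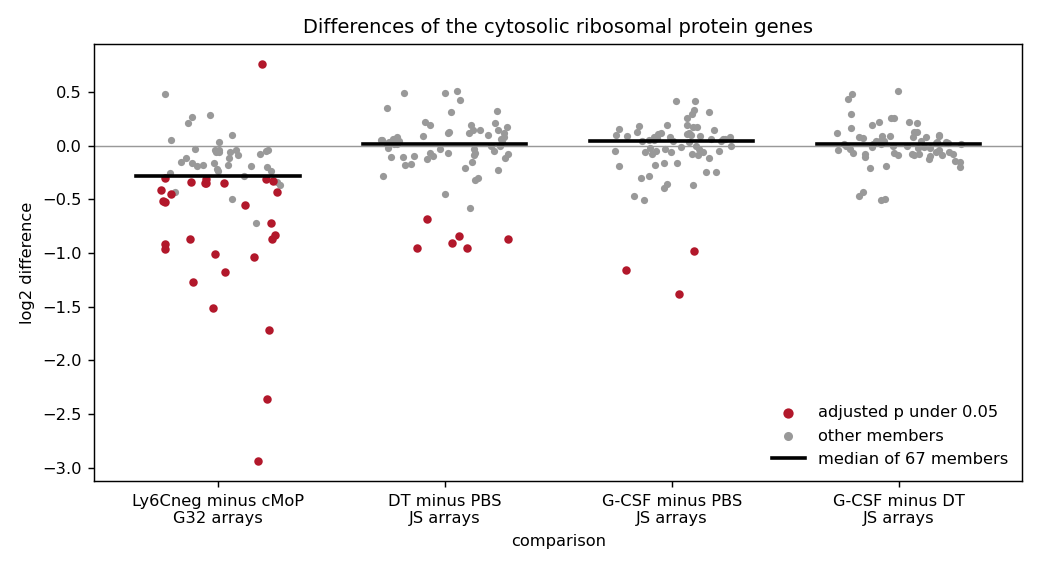
Log2 difference (y axis) of each of the 67 members in the 4 comparisons made with 3 arrays a group (x axis), with members past the threshold in red and the median as a black bar. Ly6Cneg monocytes against cMoPs has 29 red points and a median of −0.28, and the 3 comparisons within the JS series have 6, 3 and 0 red points and medians of 0.01, 0.04 and 0.01.

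The same comparison without the JS arrays rests on 1 DT and 1 PBS array of the G32 series and went the other way in most members. There the G32 DT-Ly6C+ array lay above the G32 PBS-Ly6C+ array in 57 of the 67 members, with a median difference of 0.22, where 48.3% of all genes lay above and the median over all genes was −0.01. With 1 array a group, taken to vary like the other groups, no member was called in either direction and 0.0225% of all genes were. Rpl30 was at 6.50 in the G32 DT-Ly6C+ array and 5.42 in the G32 PBS-Ly6C+ array, opposite to the JS arrays, and the difference between the series was past the threshold for Rpl30 (−1.99 ± 0.39, adjusted p = 0.00412) and Rplp0 (−1.22 ± 0.32, adjusted p = 0.0244), 2 of 67 members against 8.30% of all genes. Rpl3 was lower in the DT-Ly6C+ array of G32 too, at 9.07 against 10.37.

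Arrays of the same label were also compared between series. Of the PBS-Ly6C+ arrays, those of JS were higher than the G32 array in 6 members (Rpl7l1 by 1.56, Rpl34 by 1.08, Rpl6 by 1.08, Rpl3 by 0.95, Rpl30 by 0.86 and Rpl3l by 0.58) and lower in 3 (Rpl9 by −1.24, Rps13 by −0.58 and Rps3a1 by −0.50), in all 9 of 67 where 20.00% of all genes were called. Of the DT-Ly6C+ arrays, 1 member was called (Rpl9, lower in JS by −1.50, adjusted p = 0.029), where 0.271% of all genes were. The JS DT-Ly6C+ arrays lay on average below the single G32 DT-Ly6C+ array in 54 of the 67 members (median −0.23, all genes −0.03). Among the 36 members averaging 10 or more, 34 lay below. For the PBS-Ly6C+ arrays 34 members lay above and 33 below (median 0.00, all genes −0.07). Rpl9 was at 10.02 to 10.78 in all 8 G32 arrays and at 8.48 to 9.42 in all 9 JS arrays, whatever the population.

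G-CSF mobilizes myeloid cells from bone marrow, and the next comparison sets G-CSF-Ly6C+ monocytes against the same 3 JS PBS-Ly6C+ arrays. Here 3 members were lower and 0 higher, where 9.80% of all genes were lower and 9.13% higher. At an unadjusted limma p under 0.05, 4 members were lower and 1 higher, as were 3107 and 3603 of all 22180 genes. The 3 were among the 6 lower in DT-Ly6C+ monocytes, and both comparisons share their PBS arrays. Rpl3 was at 10.12, 9.89 and 9.80 in the G-CSF arrays, below the 11.18 to 11.42 of the PBS arrays, and was 2.60-fold lower (−1.38 ± 0.20, adjusted p = 8.71e-05), while its other probe sets differed by 0.20 and 0.12. Rpl34 was at 6.79, 6.77 and 6.52 (−1.16 ± 0.22, adjusted p = 0.00114) and Rps7 at 7.14, 7.27 and 6.44 (−0.98 ± 0.25, adjusted p = 0.0106). Without G-CSF array 3 the adjusted p of Rps7 was 0.0629. The other 3 members lower in DT-Ly6C+ monocytes differed here by −0.47 (Rpl6, adjusted p = 0.174), −0.40 (Rpl30, adjusted p = 0.184) and −0.25 (Rpl26, adjusted p = 0.373) and were not called. The median over the 67 was 0.04, and that over all genes 0.06.

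Between G-CSF-Ly6C+ and DT-Ly6C+ monocytes, the 2 treated populations, no member was called by limma in either direction. Of all genes 0.0361% were higher and 0.0271% lower. At an unadjusted limma p under 0.05, 5 members were higher and 1 lower, as were 995 and 667 of all 22180 genes. The largest differences were those of Rpl3 (−0.51, 95% interval −0.93 to −0.09) and Rpl30 (0.51, 0.10 to 0.93), in both of which the arrays of the groups did not overlap. In 12 members (17.9%) all G-CSF-Ly6C+ arrays lay above all JS DT-Ly6C+ arrays, as did 7.16% of all genes. In 3 members (4.48%) they all lay below, as did 7.18% of all genes. In 65 of 67 members the 95% interval lay within 1 of 0, and the median interval was the difference ± 0.27.

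The single Ly6C+ arrays of G32 were set against the 3 cMoP arrays and the 3 Ly6Cneg arrays, each single array being taken to vary like the other groups. The PBS-Ly6C+ array lay below the cMoP mean in 61 of the 67 members and above in 6, where 9138 of all 22180 genes lay below. Rpl34 (−2.32 ± 0.31), Rpl30 (−2.23 ± 0.28) and Rpl7l1 (−1.91 ± 0.38) were at the top. The DT-Ly6C+ array lay below in 55 members (among them Rpl34, Rpl3, Rpl7l1, Rpl30, Rps27l, Rps23 and Rps29) and above in 12, where 9703 of all genes lay below. The medians were −0.43 and −0.20, and those of all genes 0.10 and 0.05. Both comparisons and that of Ly6Cneg monocytes share the cMoP arrays. Against the Ly6Cneg arrays the DT-Ly6C+ array was higher in Rpl30 (by 1.22) and Rplp0 (by 0.81) and lower in Rpl3 (by −1.47), 3 members where 7.90% of all genes were called.

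Genes of the mitochondrial ribosome, the separate ribosome that makes a few proteins of the respiratory chain, moved further. Of 70 measured, 65 were lower and 1 higher in Ly6Cneg monocytes than in cMoPs, with a median of −1.13. Of all genes 19.4% were lower and 13.5% higher. In DT-Ly6C+ against PBS-Ly6C+ monocytes of JS, 23 were lower and 1 higher (median −0.42), where 10.01% and 9.46% of all genes were. In G-CSF-Ly6C+ against PBS-Ly6C+, 21 were lower and 3 higher (median −0.35), where 9.80% and 9.13% of all genes were. The single G32 arrays went the other way, with the DT-Ly6C+ array above the PBS-Ly6C+ array in 69 of the 70 (median 0.74). Of all genes 48.3% lay above (median −0.01). The DT-PBS difference was lower in JS than in G32 in 68 of the 70 (median −1.19), where the median over all genes was 0.04. Only 3 of the 70 average 10 or more on the array, so they are to be read beside the dim members, of which 14 of 31 were lower in Ly6Cneg monocytes and 5 of 31 in DT-Ly6C+ monocytes.

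Other genes around the ribosome were taken from lists. Their counts stand beside 19.4% of all genes lower and 13.5% higher in Ly6Cneg monocytes than in cMoPs. For DT- against PBS-Ly6C+ monocytes of JS the shares were 10.01% lower and 9.46% higher. Of genes with a mean of 10 or more, 34.5% were lower in the first comparison and 10.7% in the second. Of 18 measured translation factors and other genes with TOP or TOP-like messengers (of 20 listed), 11 were lower and 0 higher in Ly6Cneg monocytes than in cMoPs, with Eef1d (−1.18), Eif3l (−1.06), Eif3m (−0.78) and Eef1g (−0.73) in front. In DT-Ly6C+ monocytes of JS 4 were lower (among them Eef1g at −0.98 and Nap1l1 at −0.88) and 2 higher (Eif3h at 0.57 and Eif3f at 0.56). Of 14 measured genes of the mTOR pathway and its TOP arm, 6 were lower and 1 higher in Ly6Cneg monocytes. Larp1 was lower by 1.15 there (adjusted p = 1.12e-05) and by 0.46 in DT-Ly6C+ monocytes of JS (adjusted p = 0.0339). Ddit4, an mTOR inhibitor, was higher by 3.05 and 1.58. In DT-Ly6C+ monocytes of JS 3 of these 14 genes were higher and 1 lower. Of 10 factors linked to ribosomal gene transcription, 6 were lower in Ly6Cneg monocytes and 4 in DT-Ly6C+ monocytes, with none higher in either. Myc, which drives ribosome synthesis, averaged 10.25 in cMoPs, 8.58 in Ly6Cneg, 10.23 in JS PBS-Ly6C+ and 7.28 in JS DT-Ly6C+ monocytes (differences −1.67 and −2.96), and 6.65 in the G32 PBS-Ly6C+ array. All 5 measured factors of ribosome recycling and rescue were lower in Ly6Cneg monocytes, led by Abce1 (−1.63) and Pelo (−1.53), and 3 of them in DT-Ly6C+ monocytes (Abce1 −1.22). The factor p53 is held low by Mdm2, which free ribosomal proteins such as Rpl5 and Rpl11 can bind and block. Of 9 measured p53 targets 5 were higher and 1 lower in Ly6Cneg monocytes and 2 higher in DT-Ly6C+ monocytes of JS, with Cdkn1a up by 1.33 and 2.52. Cdkn1a averaged 8.19 in the JS PBS-Ly6C+ arrays and stood at 11.31 in the G32 PBS-Ly6C+ and 11.29 in the G32 DT-Ly6C+ array. Between these single G32 arrays (DT minus PBS) Eef1g, Nap1l1 and Abce1 differed by 0.22, 0.31 and 0.19. Larp1 differed there by −0.21 and Ddit4 by 0.79. Fau, a small subunit protein that the symbol rule does not take, was not called. It differed by 0.11 in Ly6Cneg monocytes against cMoPs and by 0.18 in DT- against PBS-Ly6C+ monocytes of JS.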

How the data were processed

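Per the labels and the study's methods, the authors hybridized RNA of sorted cells (RNeasy Micro kit) to Affymetrix MoGene 2.0 arrays and made log2 expression values by RMA with the oligo package (versions not given in the sources used here); these deposited log2 values were used as they stand. Of 41345 probe sets, 23521 carry 1 gene symbol in GEO's platform annotation, 1820 several and 16004 none. A gene was represented by its probe set with the highest mean, which gave 22180 genes (21994 matched to RefSeq by ID, all 67 members among them). All 17 arrays entered 1 limma (3.58.1, R 4.3.3) fit with 7 means, 1 per group and series (10 residual degrees of freedom). The test was checked on simulated data. Alternatives were another series term, filter, probe set rule, normalization, weighting and leaving out each array. Summaries and plots used Python 3.11.15, pandas 2.3.3, scipy 1.17.1 and matplotlib 3.10.9. The number of arrays limits the precision. Members and lists were chosen with earlier results of these data known. Values are named for fixed lists (stalk, paralogues and their usual forms, Diamond-Blackfan genes, members of stated role), for the 3 largest called rises and falls per main comparison whose arrays do not overlap, and for up to 4 genes of other lists; the marker genes and the members Rpl9, Rpl15, Rpl26, Rpl27, Rpl27a, Rpl28, Rpl29, Rpl32l, Rpl41, Rps13, Rps18, Rps23, Rps29 and Rps3a1 were named after their values were seen.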

Additional observations from a re-analysis of the deposited data

Results flagged for a closer look

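In groups of 4 arrays that span both series, 7 of 64 sets of values held an array whose distance from its nearest neighbour took up so much of the whole range that it passed Dixon's limit at 95% confidence, which chance passes in about 1 of 20 groups. Rpl30 was at 6.50 in the G32 DT-Ly6C+ array and at 5.24 to 5.45 in the 3 JS arrays, and Rpl11 at 5.96 against 6.26 to 6.29. In PBS-Ly6C+ monocytes the G32 array stood apart in Rpl34 (6.77 against 7.75 to 7.92), Rpl3l (5.95 against 6.50 to 6.57), Rplp1 (12.85 against 13.22 to 13.26) and Rps4x (11.40 against 10.83 to 10.92). The median over the 67 members stood apart in JS PBS-Ly6C+ array 2, at 10.61 against 10.34 to 10.38. In 6 of the 7 the array that stood apart was thus the single G32 array. The difference between DT- and PBS-Ly6C+ monocytes was not the same in both series for Rpl30 (JS minus G32 −1.99, limma adjusted p = 0.00412) and Rplp0 (−1.22, adjusted p = 0.0244), each with 1 array a group in G32.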

How the results depend on the processing

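Over the other models, filters, normalizations, weights and left-out arrays, no called difference of a named member turned its sign, and of 1949 recomputed values 1882 stayed on their side of the threshold, 41 lost the call and 26 gained one. On the single G32 arrays the DT-PBS differences of Rpl34, Rpl30, Rps7 and Rpl6 turned (0.32, 1.08, 0.72 and 0.07), and on the further probe sets of Rpl3 those against PBS did (0.02 and 0.22 for DT, 0.20 and 0.12 for G-CSF); none of these was called. In Ly6Cneg monocytes against cMoPs 1 member was higher under every setting that kept all members and 20 to 37 were lower; among the 36 bright members 0 were higher and 14 lower, and among the 31 dim ones 14 were lower. Median centring moved the median difference there from −0.28 to −0.41. In DT- against PBS-Ly6C+ monocytes the 6 lower members became 1 with an additive series term, 0 with no series term, 11 with a trended, robust variance prior, 0 on the single G32 arrays, 9 with each probe set on its own and 1 among bright members, and 4 to 6 when 1 array was left out; 1 member was higher with the additive term (Rpl9), the mean of probe sets (Rpl7), median centring (Rpl37) or array weights (Rpl9), 3 with the trended prior, and 0 to 1 when 1 array was left out. In G-CSF- against PBS-Ly6C+ monocytes the 3 lower members became 1 with no series term, 7 with each probe set on its own and 1 among bright members, and 2 to 3 when 1 array was left out; 1 was higher with dim genes left out (Rpsa) or the mean of probe sets (Rpl7) and 2 with the trended prior. The additive term and the fit without a series term bring the G32 arrays into the JS comparisons. No setting called a member between G-CSF- and DT-Ly6C+ monocytes. The share of all genes called under each setting is not given here. The member counts per setting therefore cannot be read as a result about the members. Splits by brightness, single probe sets and the G32 arrays alone were chosen after seeing the data. Whether the array numbers pair the JS arrays could not be decided. Deviations of same-numbered arrays correlated at 0 to 0.09 and those of differently numbered arrays of other groups at −0.063 to 0.047. Of the 9 arrays 5 correlated best with their own number. With the number as a replicate block, 5 members were lower in the DT, 2 in the G-CSF and 0 in the third comparison. Single G32 arrays and dim probe sets limit the precision.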
